A study of Mus musculus with 12 samples.

Results

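The genes described here encode the pore and accessory subunits of voltage-gated sodium, calcium and potassium channels, of the other potassium channels, and of the pacemaker channels of the mouse heart. They were the rows of the deposited expression table whose symbol belongs to the Kcn, Scn, Cacna, Cacnb, Cacng or Hcn families, 137 of the 34714 genes listed. RNA from heart tissue was sequenced in mice of a melanoma model treated with an antibody against the checkpoint receptor PD-1 or with an IgG antibody. The 3 groups were aPD1_lef (anti-PD-1 with leflunomide, 4 libraries), aPD1_veh (anti-PD-1 with veh, read here as vehicle, 4 libraries) and IgG_lef (IgG with leflunomide, 3 libraries). The labels give no strain, age, sex, dose or time, and there was no group with IgG and vehicle. The study asked whether leflunomide, an inhibitor of pyrimidine synthesis, protects the heart from anti-PD-1. aPD1_lef and aPD1_veh differ by the drug and aPD1_lef and IgG_lef by the antibody, while aPD1_veh and IgG_lef differ by both. Nothing in the labels says that the libraries of a group came from separate animals, so the p-values measure the spread between these libraries, which may be technical.

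A heartbeat begins with sodium entry through a voltage-gated sodium pore, continues with calcium entry through the L-type pore (Cacna1c), and ends when potassium leaves the cell. In mouse ventricle repolarization is fast and rests mainly on the transient outward current of Kv4 channels (Kcnd2, Kcnd3) with their subunit KChIP2 (Kcnip2), together with other Kv channels such as Kv1.5 (Kcna5). Inward rectifiers (Kcnj genes) and leak channels (Kcnk genes) hold the resting potential, and beta, alpha2delta, gamma and KCNE subunits set how many pores reach the membrane and how they open.

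Values were treated as FPKM, read fragments scaled to gene length and to library size, so levels can be set side by side between genes. Totals of the 11 libraries lay between 393494 and 465511, and 37 to 45 channel genes reached a value of 1 in each. The read depth is unknown. The library aPD1_lef replicate 4 stood apart from the others: the ventricular myosin heavy chain gene Myh6 was 244 there, against 1370 to 2795 in the other aPD1_lef libraries and 2704 to 3429 in the libraries of aPD1_veh and IgG_lef. The summed level of 8 cardiomyocyte markers was 8213 to 24293 in aPD1_lef, 23880 to 33049 in aPD1_veh and 24572 to 28352 in IgG_lef, none of the 8 being at 0. The atrial myosin light chain Myl7 was 32.5 and 43.0 in aPD1_lef replicates 1 and 2 and 266 in IgG_lef replicate 2, and at most 1.78 elsewhere. In whole tissue, fewer cells of a type and less RNA per cell cannot be told apart.

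Of the 137 channel genes, 43 reached 1 FPKM in at least 4 libraries and were tested. Among the highest mean levels in aPD1_veh were those of Kcnk3 (79.2), Kcnip2 (76.8), Kcnj11 (56.5), Kcng2 (50.4), Scn4b (27.0), Kcnj8 (25.4) and Cacna1c (22.9 FPKM). The other 94 were not tested. Of these, 10 were at 0 in every library, 73 were above 0 but below 1 throughout, and 11 reached 1 in some library. Kcnj14, Kcnj15 and Kcnt2 passed the filter through the aPD1_lef libraries alone and therefore had to be higher there. The sum over all 137 genes was 494, 529, 480 and 399 FPKM in aPD1_lef, 615, 651, 584 and 626 FPKM in aPD1_veh, and 499.8, 573 and 531 FPKM in IgG_lef. The aPD1_lef sums were all below the aPD1_veh sums and overlapped those of IgG_lef.

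**Figure D1:**
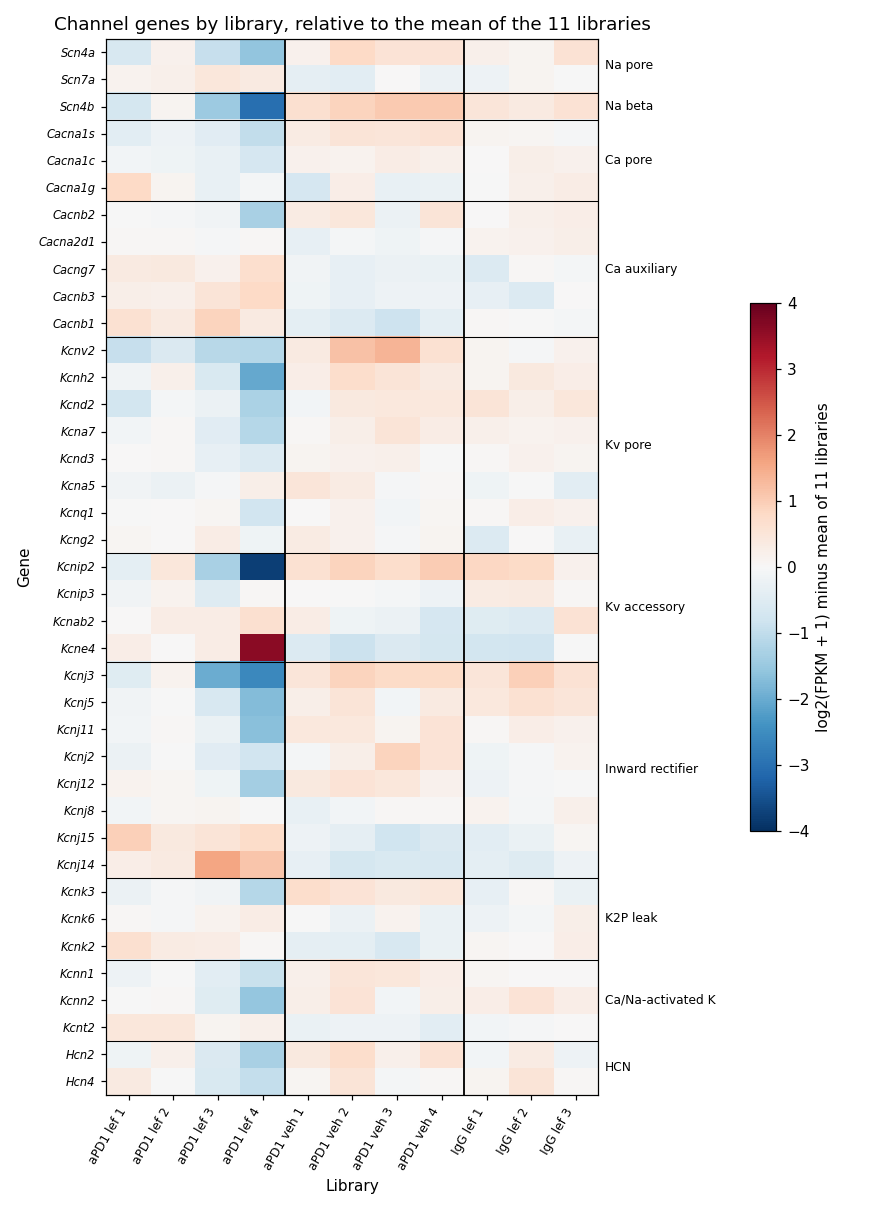
Each row is 1 of 39 tested channel genes and each column 1 library; colour gives log2(FPKM + 1) minus the mean of the 11 libraries, and black lines separate roles and groups. Blue cells for Scn4b, Kcnip2, Kcnj3 and Kcnh2 are deepest in aPD1_lef replicate 4, and Kcne4 has its single deep red cell there.

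Comparing aPD1_lef with aPD1_veh, which asks what leflunomide changed under anti-PD-1, 23 of the 43 tested channel genes passed an adjusted p of 0.05, against 32.4% of the 12005 genes tested. The lower ones were 14 (14.3% of all tested genes were lower) and the higher ones 9 (18.2% of all were higher). The genes that fell in aPD1_lef included Kv pores, L-type calcium pores, sodium beta-4 and KChIP2, and those that rose included accessory calcium channel subunits. The median log2 change of the 43 was -0.25, against 0.04 for all genes tested. Group values did not overlap for 24 of the 43, against 36.1% of all genes. Leaving out Kcnj14, Kcnj15 and Kcnt2, which the filter required to be higher, 20 of 40 were called, 14 lower and 6 higher, against 32.2% of the other genes tested (17.9% higher); 21 of the 40 did not overlap, and their median log2 change was -0.39. Without any 1 aPD1_lef library, Kcnj14, Kcnj15 and Kcnt2 no longer passed the filter. With aPD1_lef replicate 1, 2, 3 or 4 left out, the median of the other 40 was -0.49, -0.48, -0.33 or -0.29, beside -0.39 with all libraries. Under the one-total scaling the median of the 43 was -0.11. Without the 3 libraries with Myl7 above 10 the median of the same 40 was -0.63. There 28 of the 40 were called, 21 of them lower, against 4245 of all 11720 genes, 2137 of them lower. That fit kept only replicates 3 and 4 of aPD1_lef. Their summed cardiomyocyte markers were 17096 and 8213 FPKM, against 21258 and 24293 FPKM in replicates 1 and 2. Scaling every library to one total moved the median of all genes to 0.17, with 3467 genes higher and 1124 lower in place of 2181 and 1711, and quantile normalization gave 1784 higher and 2205 lower; no called channel gene changed direction in either.

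**Figure D2:**
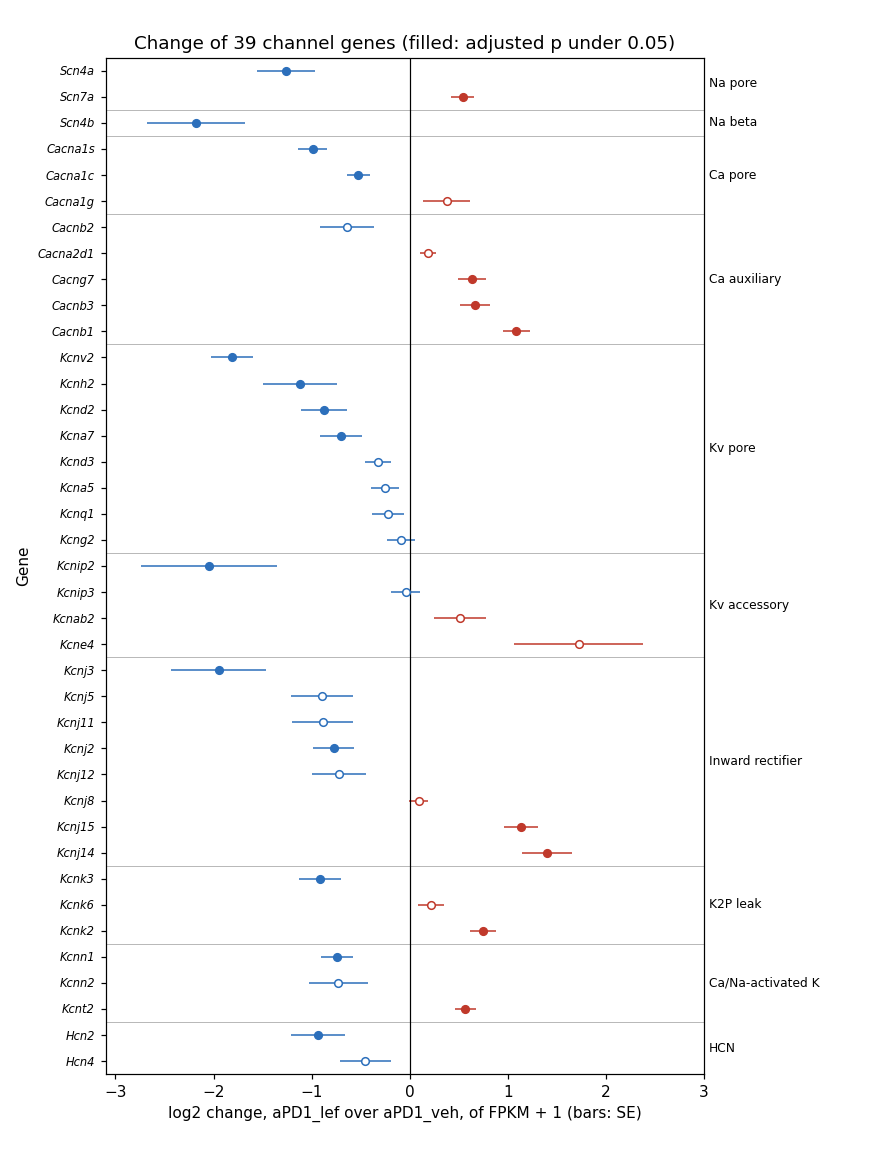
Points give the log2 change of FPKM + 1, aPD1_lef over aPD1_veh, of 39 tested channel genes by role, with bars for the standard error; filled points passed the adjusted p of 0.05. Scn4b lies farthest to the left at -2.18, and the open point farthest to the right is Kcne4 at 1.72, with a bar of 0.66.

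To show the DNA in front of called genes, the 250 bases upstream of the RefSeq start are given for some of them. These are the 3 with the lowest log2 changes that have a listed start (Scn4b, Kcnip2 and Kcnj3), and Kcnj15 among the higher ones. The filter required Kcnj15 to be higher, as it did Kcnj14 and Kcnt2. The sequences are those of GRCm38.p6, read 5′ to 3′ on the gene's strand: Scn4b at chr9:45138374-45138623 (plus strand), Kcnip2 at chr19:45816064-45816313 (minus), Kcnj3 at chr2:55435720-55435969 (plus) and Kcnj15 at chr16:95257308-95257557 (plus). For Kcnip2 and Kcnj3 the listed start lies inside the annotated span of the gene. Capitals mark matches, on either strand, to the GC box letters GGGCGG, the CACCC box, the M-CAT letters CATTCC, the GATA letters AGATAA and the T-box letters AGGTGT.
Scn4b: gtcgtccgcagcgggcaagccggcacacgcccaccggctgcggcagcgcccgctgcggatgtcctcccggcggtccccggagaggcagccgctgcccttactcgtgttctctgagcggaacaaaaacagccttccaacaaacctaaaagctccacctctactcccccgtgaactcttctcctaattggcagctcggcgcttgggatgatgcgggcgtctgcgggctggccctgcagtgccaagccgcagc
Kcnip2: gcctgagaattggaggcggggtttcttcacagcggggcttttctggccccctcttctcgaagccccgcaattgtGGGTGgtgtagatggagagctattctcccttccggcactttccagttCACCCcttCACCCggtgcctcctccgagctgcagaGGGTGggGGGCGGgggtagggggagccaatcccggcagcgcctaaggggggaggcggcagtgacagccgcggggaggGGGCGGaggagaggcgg
Kcnj3: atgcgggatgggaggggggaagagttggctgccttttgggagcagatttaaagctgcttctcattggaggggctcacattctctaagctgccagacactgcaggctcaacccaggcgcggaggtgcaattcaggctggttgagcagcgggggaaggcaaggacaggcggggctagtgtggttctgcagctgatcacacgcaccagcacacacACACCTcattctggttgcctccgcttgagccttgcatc
Kcnj15: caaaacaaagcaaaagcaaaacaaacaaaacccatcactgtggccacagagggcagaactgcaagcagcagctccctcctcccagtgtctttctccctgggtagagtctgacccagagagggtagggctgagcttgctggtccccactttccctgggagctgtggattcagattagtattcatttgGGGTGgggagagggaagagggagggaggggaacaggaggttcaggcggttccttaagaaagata
The Kcnip2 window holds 6 matches: GC boxes 87 and 17 bases before the start and CACCC 129 and 121 bases before it on the gene's strand, and 176 and 94 bases before it on the other strand. The Kcnj3 window has 1 match, the T-box letters 38 bases before the start on the opposite strand, and the Kcnj15 window 1, CACCC at 64 bases. The Scn4b window, with 66% G and C, has none of the 5 motifs. CACCC was in 12 of the 15 listed starts of called lower channel genes (80%) and in 7 of the 12 of called higher ones (58.3%), against 70.6% of the 136 starts of all channel genes, 57.5% of the starts of tested genes and 52% of the 32851 starts listed for the genome. GGGCGG was in 53.3% of the lower and 41.7% of the higher starts, against 56.8% of the 12358 starts of tested genes and 32.7% of all. CATTCC was in 6.67% and 25%, against 10.8% of tested and 12.6% of all starts. AGATAA was in 0% and 8.33%, against 5.88% of tested and 9.99% of all starts, and AGGTGT in 13.3% and 8.33%, against 9.36% of tested and 11.8% of all starts. Of the 23 called genes, 19 have a listed start, and a match is a description of letters only.

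Sodium pores did not move together. Scn4a, the sodium pore of skeletal muscle, was 1.93, 4.11, 1.39 and 0.545 FPKM in aPD1_lef and 4.18, 7.00, 5.68 and 5.60 FPKM in aPD1_veh, a fall of 1.26 ± 0.30 (SE) on the log2 scale (adjusted p = 0.0113). Its highest aPD1_lef library lay just under its lowest aPD1_veh library. Scn7a, the sodium-sensing Nax channel, averaged 8.45 ± 0.89 FPKM in aPD1_lef and 5.52 ± 0.94 FPKM in aPD1_veh (SD, n = 4 each), a log2 change of 0.54 ± 0.12 with an adjusted p of 0.00806.

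Among the sodium beta subunits, Scn4b fell in aPD1_lef. Scn4b (chr9:45138624-45154155), which sets the voltage dependence of sodium pores and gives resurgent current, was 8.14, 14.9, 4.40 and 0.835 FPKM in aPD1_lef and 22.3, 26.6, 29.6 and 29.5 FPKM in aPD1_veh. Every aPD1_lef library was below every aPD1_veh library; the mean was 26.1% of that of aPD1_veh and the log2 change -2.18 ± 0.50 (adjusted p = 0.0101). The Scn4a and Scn4b falls were larger without aPD1_lef replicate 2. The aPD1_lef means were then 0.229 and 0.165 times the aPD1_veh means, in place of 0.355 and 0.261.

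Among calcium channels, the 2 tested L-type pores fell and 3 of the 5 tested accessory subunits rose. Over all tested genes 14.3% were lower and 18.2% higher. Cacna1c (chr6:118587240-119197384), the cardiac L-type pore, was 18.0, 17.5, 15.7 and 12.0 FPKM in aPD1_lef and 22.4, 21.9, 24.3 and 22.9 FPKM in aPD1_veh. The groups did not overlap, and the log2 change was -0.52 ± 0.12 (adjusted p = 0.00884). It overlaps Dcp1b on the opposite strand, and the strand setting of the authors' counting is not given in the sources used here. Cacna1s, the L-type pore of skeletal muscle, averaged 1.26 ± 0.48 FPKM in aPD1_lef and 3.39 ± 0.30 FPKM in aPD1_veh, a log2 change of -0.99 ± 0.15 (adjusted p = 0.00145). The T-type pore Cacna1g was 1.42 to 4.11 FPKM in aPD1_lef and 0.861 to 2.50 FPKM in aPD1_veh and did not pass (adjusted p = 0.25).

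Cacnb1 (chr11:98001508-98023034), a beta subunit that carries calcium pores to the membrane, was 6.03, 4.88, 7.55 and 4.92 FPKM in aPD1_lef and 2.52, 2.14, 1.62 and 2.56 FPKM in aPD1_veh. Its lowest aPD1_lef value was well above its highest aPD1_veh value, and its log2 change of 1.09 ± 0.14 had an adjusted p of 0.000642. Cacnb3 averaged 4.17 ± 1.02 FPKM in aPD1_lef and 2.22 ± 0.15 FPKM in aPD1_veh (log2 change 0.67 ± 0.15, adjusted p = 0.00984). The gamma subunit Cacng7 averaged 4.07 ± 0.73 and 2.24 ± 0.17 FPKM in the same order (0.64 ± 0.14, adjusted p = 0.00898). Cacnb2, the beta subunit most studied in heart, did not pass: it was 9.69 to 10.7 FPKM in aPD1_lef replicates 1 to 3, 3.81 FPKM in replicate 4, and 9.01 to 15.9 FPKM in aPD1_veh (adjusted p = 0.0943). Cacna2d1, the alpha2delta subunit, was 19.8 to 21.4 FPKM in aPD1_lef and 16.1 to 20.0 FPKM in aPD1_veh and did not pass (adjusted p = 0.0995). Summed over the measured genes, pores came to 20.9 ± 4.37 FPKM in aPD1_lef and 29.2 ± 1.12 FPKM in aPD1_veh, and accessory subunits to 44.8 ± 2.29 and 40.6 ± 4.52 FPKM in that order.

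For the voltage-gated potassium pores, 4 of 10 fell and none rose, where 14.3% of all tested genes were lower and 18.2% higher. Kcnd2, the Kv4.2 pore of the transient outward current, was 1.30, 2.59, 2.23 and 0.576 FPKM in aPD1_lef and 2.52, 4.03, 4.17 and 4.16 FPKM in aPD1_veh. The groups touched, aPD1_lef replicate 2 lying above aPD1_veh replicate 1, and the log2 change was -0.87 ± 0.24 (adjusted p = 0.0194). Kcnd3, the related Kv4.3 pore, averaged 1.10 ± 0.41 FPKM in aPD1_lef and 1.59 ± 0.16 FPKM in aPD1_veh and did not pass (adjusted p = 0.0901). The Kcnd2 call was lost without aPD1_veh replicate 2 (adjusted p = 0.0529) or replicate 4 (0.0551).

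Kcnip2 (chr19:45792346-45816422), the KChIP2 subunit without which mouse Kv4 channels carry little transient outward current, was 33.2, 59.9, 17.2 and 2.27 FPKM in aPD1_lef and 67.3, 80.8, 71.1 and 88.2 FPKM in aPD1_veh. All aPD1_lef libraries were lower, but they ranged widely among themselves, and the log2 change of -2.04 ± 0.69 passed narrowly (adjusted p = 0.0441). Without aPD1_lef replicate 4 the log2 change was -1.20 (adjusted p = 0.0251). Without replicate 2 of aPD1_lef the mean was 0.229 times that of aPD1_veh, in place of 0.367. The call was lost without aPD1_lef replicate 3, without any 1 of the 4 aPD1_veh libraries and without any 1 of the 3 IgG_lef libraries, with adjusted p between 0.0565 and 0.0989, and also with a pseudocount of 0.1 (0.0517), no filter (0.0794) or only the groups compared in the fit (0.0804). The other tested Kv accessory genes did not pass. Kcne4, a subunit that inhibits KCNQ1 channels, was 5.06, 4.06, 5.11 and 60.4 FPKM in aPD1_lef and 2.43, 1.76, 2.33 and 2.08 FPKM in aPD1_veh, with an adjusted p of 0.0665. Its groups did not overlap, and with replicate 4 of aPD1_lef left out it was called higher by 0.87 ± 0.17 (adjusted p = 0.00381).

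Kcnv2 (chr19:27322061-27337179), a silent Kv8.2 subunit known from cone photoreceptors that changes Kv2 channels, had the lowest ratio of means of the 43 genes. It was 0.259, 0.617, 0.120 and 0.0949 FPKM in aPD1_lef and 2.08, 4.45, 5.17 and 2.66 FPKM in aPD1_veh. The aPD1_lef mean was 7.60% of the aPD1_veh mean (4.40% without aPD1_lef replicate 2), and the log2 change on FPKM + 1 was -1.81 ± 0.22 (adjusted p = 0.000449).

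Kcnh2, the ERG pore of the rapid delayed rectifier, was 14.1, 18.0, 9.87 and 3.02 FPKM in aPD1_lef and 19.2, 26.0, 22.8 and 20.5 FPKM in aPD1_veh (log2 change -1.12 ± 0.38, adjusted p = 0.0446). The groups were apart by little, between 18.0 and 19.2 FPKM. Without aPD1_lef replicate 4 the log2 change was -0.65. The call was lost without aPD1_lef replicate 3, any 1 aPD1_veh library or any 1 IgG_lef library, with adjusted p between 0.0594 and 0.107. It was also lost with one total per library (adjusted p = 0.0587), a pseudocount of 0.1 (0.0515), no filter (0.0802) and only the groups compared (0.0824). Kcna7, the Kv1.7 pore, averaged 2.72 ± 1.19 FPKM in aPD1_lef and 4.81 ± 0.78 FPKM in aPD1_veh (adjusted p = 0.0317). Its log2 change of -0.70 became -0.46 without aPD1_lef replicate 4, and the call was lost without aPD1_lef replicate 3 or aPD1_veh replicate 2, 3 or 4 (adjusted p 0.0651 to 0.0802), and likewise with one total per library (0.0514), no filter (0.0581) or only the groups compared (0.0634). Kcna5 (Kv1.5) averaged 13.8 ± 2.10 FPKM in aPD1_lef and 16.8 ± 2.88 FPKM in aPD1_veh and did not pass (adjusted p = 0.19). Kcnq1, the pore of the slow delayed rectifier, was 12.7 to 13.6 FPKM in 3 aPD1_lef libraries and 7.18 FPKM in replicate 4, and 11.9 to 14.8 FPKM in aPD1_veh (adjusted p = 0.33). Kcnq1 overlaps the antisense Kcnq1ot1. Kcng2, a silent subunit and the most abundant Kv gene at 47.4 ± 6.80 FPKM in aPD1_lef and 50.4 ± 5.61 FPKM in aPD1_veh, did not pass (adjusted p = 0.64).

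**Figure D3:**
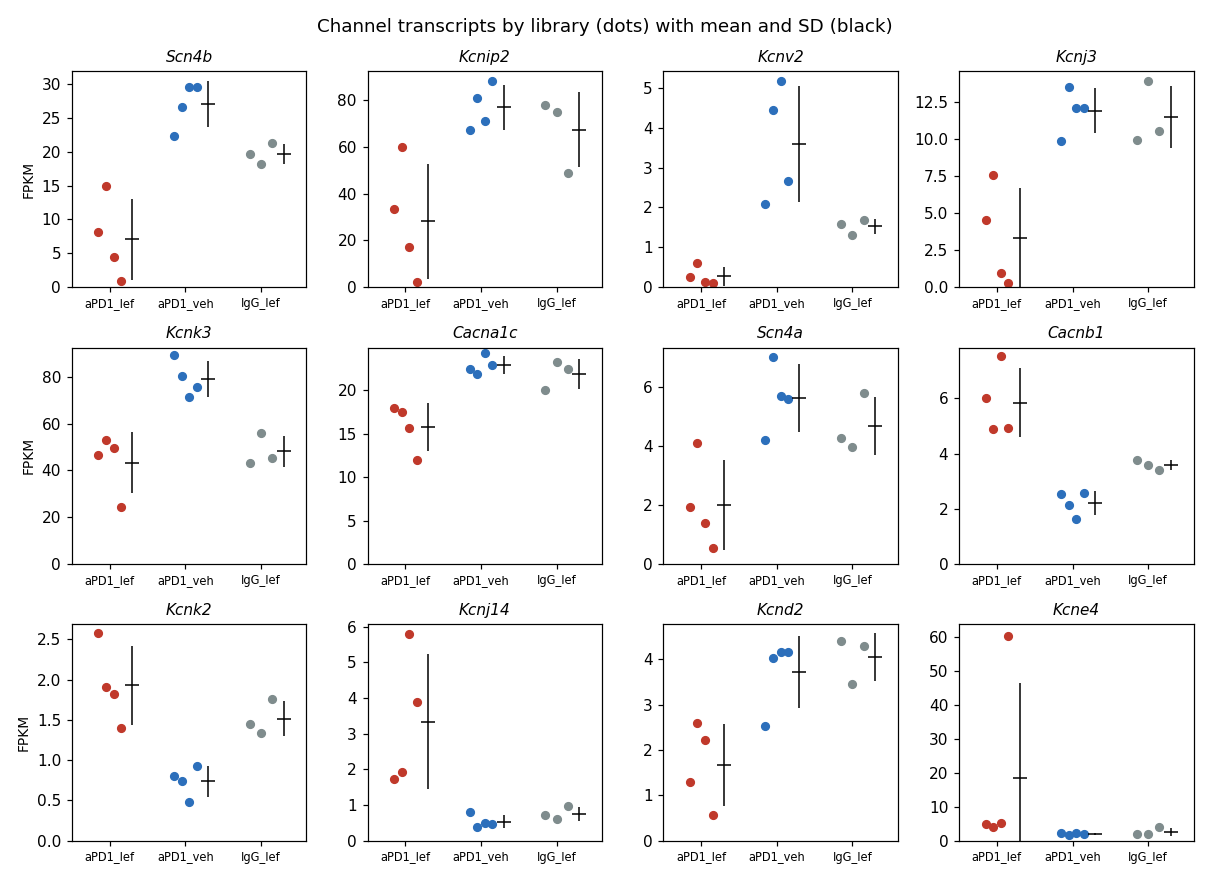
Dots are FPKM in single libraries of 12 channel genes, with the mean and SD in black, for aPD1_lef, aPD1_veh and IgG_lef from left to right. Kcnip2 spreads from 2.27 to 59.9 FPKM over the 4 aPD1_lef libraries, Kcnk3 lies between 24.2 and 55.9 FPKM in the aPD1_lef and IgG_lef libraries, and Kcne4 has 1 aPD1_lef library at 60.4 FPKM.

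Of 8 tested inward rectifiers, 2 fell, and 2 were called higher that the filter required to be higher. Over all tested genes 14.3% were lower and 18.2% higher. Kcnj3 (chr2:55411798-55598145), the GIRK1 subunit of the acetylcholine-gated current, was 4.57, 7.57, 0.984 and 0.299 FPKM in aPD1_lef and 9.89, 13.6, 12.1 and 12.1 FPKM in aPD1_veh. The groups were apart, and the log2 change was -1.95 ± 0.48 (adjusted p = 0.0137). Without aPD1_lef replicate 2 the mean was 0.164 times that of aPD1_veh, in place of 0.281. Its partner subunit Kcnj5 (GIRK4) averaged 7.77 ± 3.82 FPKM in aPD1_lef and 14.0 ± 2.63 FPKM in aPD1_veh and missed the threshold (adjusted p = 0.0504). Kcnj2, the Kir2.1 pore of the resting current, was 5.12, 6.13, 4.29 and 3.25 FPKM in aPD1_lef and 5.87, 7.58, 12.4 and 9.64 FPKM in aPD1_veh. Its groups overlapped by 1 library, and the fall of 0.78 ± 0.21 on the log2 scale had an adjusted p of 0.0186 (0.0541 without aPD1_veh replicate 4). Kcnj12, the companion Kir2.2 pore, averaged 5.32 ± 2.40 FPKM in aPD1_lef and 8.69 ± 0.99 FPKM in aPD1_veh and did not pass (adjusted p = 0.0679).

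Kcnj11, the Kir6.2 pore of the ATP-sensitive channel of cardiomyocytes, was 40.0, 44.2, 35.2 and 12.7 FPKM in aPD1_lef and 57.9, 58.3, 46.5 and 63.5 FPKM in aPD1_veh. The groups did not overlap, yet the log2 change of -0.88 ± 0.31 missed the threshold (adjusted p = 0.0502). Without aPD1_lef replicate 4, Kcnj11, Kcnj5 and Kcnj12 were all called lower, with log2 changes of -0.49, -0.52 and -0.37. Kcnj8, the Kir6.1 pore of vascular muscle and pericytes, averaged 27.1 ± 1.86 FPKM in aPD1_lef and 25.4 ± 2.77 FPKM in aPD1_veh (adjusted p = 0.51).

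The 2 inward rectifiers called higher had low levels. Kcnj14 (Kir2.4) was 1.74, 1.93, 5.79 and 3.89 FPKM in aPD1_lef and 0.813, 0.383, 0.498 and 0.461 FPKM in aPD1_veh, 6.20 times as high in mean. Kcnj15 (chr16:95257558-95300260), the Kir4.2 pore known from kidney epithelium, was 2.65, 1.44, 1.66 and 2.10 FPKM in aPD1_lef and 0.616, 0.467, 0.0740 and 0.242 FPKM in aPD1_veh, 5.61 times as high. For both, the filter alone required the 4 aPD1_lef libraries to lie above the others, so these values are given without their tests.

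The tandem-pore leak channels also split. Kcnk3 (chr5:30588170-30625270), the acid-sensitive TASK-1 channel, was 46.4, 53.1, 49.4 and 24.2 FPKM in aPD1_lef and 89.3, 80.4, 71.5 and 75.8 FPKM in aPD1_veh (log2 change -0.91 ± 0.21, adjusted p = 0.0105). Kcnk2 (chr1:189207930-189402782), the stretch-sensitive TREK-1 channel, was 2.58, 1.90, 1.82 and 1.40 FPKM in aPD1_lef and 0.804, 0.747, 0.476 and 0.924 FPKM in aPD1_veh (0.75 ± 0.13, adjusted p = 0.00339). Neither gene overlapped between the groups. Kcnk6 (TWIK-2) averaged 2.45 ± 0.35 FPKM in aPD1_lef and 1.98 ± 0.42 FPKM in aPD1_veh and did not pass (adjusted p = 0.24).

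Among calcium- and sodium-activated channels, Kcnn1 (SK1) averaged 5.15 ± 1.51 FPKM in aPD1_lef and 9.06 ± 0.96 FPKM in aPD1_veh, lower with a log2 change of -0.74 (adjusted p = 0.00801). Kcnn2 (SK2), the small-conductance channel best known from atria, averaged 2.37 ± 1.38 and 4.19 ± 0.95 FPKM in that order and did not pass (adjusted p = 0.0871). Kcnt2, the sodium-activated Slick channel, averaged 1.32 ± 0.28 FPKM in aPD1_lef and 0.557 ± 0.12 FPKM in aPD1_veh, again a gap that the filter required. Of the pacemaker channels, Hcn2 was 4.85, 6.52, 3.37 and 1.66 FPKM in aPD1_lef and 7.61, 9.72, 6.56 and 8.86 FPKM in aPD1_veh (log2 change -0.94 ± 0.28, adjusted p = 0.0258). The groups were separated only by the gap between 6.52 and 6.56 FPKM, and the call was lost without aPD1_lef replicate 3 (adjusted p = 0.0629) or aPD1_veh replicate 2 (0.0716) or 4 (0.0671). Hcn4, the main pacemaker channel of the sinus node, averaged 0.924 ± 0.76 FPKM in aPD1_lef and 1.51 ± 0.46 FPKM in aPD1_veh and did not pass (adjusted p = 0.20).

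Most of the 14 lower genes had the same order of aPD1_lef libraries, as had most genes called lower over the whole table. In all 14, aPD1_lef replicate 4 had the lowest value of the 11 libraries, which held for 83.4% of the 1711 genes called lower over the whole table. In 13 of the 14, aPD1_lef replicate 2 was the highest of its group, as in 76.3% of all lower genes. In 11 of the 14, the 4 aPD1_lef libraries stood in the same order as their summed cardiomyocyte markers, which were 21258, 24293, 17096 and 8213 FPKM in replicates 1 to 4, an order that 55.6% of all lower genes had. None of the 9 higher genes had that order, nor did most of the 2181 genes called higher over the whole table (0.871% had it). Of the 8 cardiomyocyte markers, 4 passed as lower in aPD1_lef than in aPD1_veh (Tnni3, Pln, Ckm and Ryr2) and none as higher. Over all tested genes 14.3% were lower and 18.2% higher.

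Channel values were also set against the cardiomyocyte markers, as FPKM per 1000 FPKM of the geometric mean of the 8 markers. On that scale Scn4b, Kcnj3, Kcnv2 and Cacna1s were lower in every aPD1_lef library than in every aPD1_veh library, and the other 10 of the 14 lower genes overlapped. The 9 channel genes called higher were all higher without overlap on this scale, which was fixed in advance. They did not overlap as FPKM, and the marker mean was lower in every aPD1_lef library than in every aPD1_veh library. It was 577 to 1869 FPKM in aPD1_lef and 2019 to 2533 FPKM in aPD1_veh. Of the 20 that did not pass, 7 were higher without overlap and 13 overlapped. Over all 12005 genes, called or not, 1.34% were lower without overlap on this scale and 58.0% were higher. The 14 had been chosen as lower, so their share cannot be set against that 1.34%. Scn4b was 5.19, 7.96, 3.62 and 1.45 in aPD1_lef and 9.81, 11.4, 14.7 and 11.7 in aPD1_veh. Cacna1s was 0.982 ± 0.093 in aPD1_lef and 1.49 ± 0.14 in aPD1_veh. Kcnk3, lower as FPKM, was 35.2 ± 7.17 in aPD1_lef and 34.8 ± 3.86 in aPD1_veh, and Cacna1c was 13.6 ± 4.98 and 10.1 ± 1.34 in that order. The part of cardiomyocyte content in these differences was not tested.

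**Figure D4:**
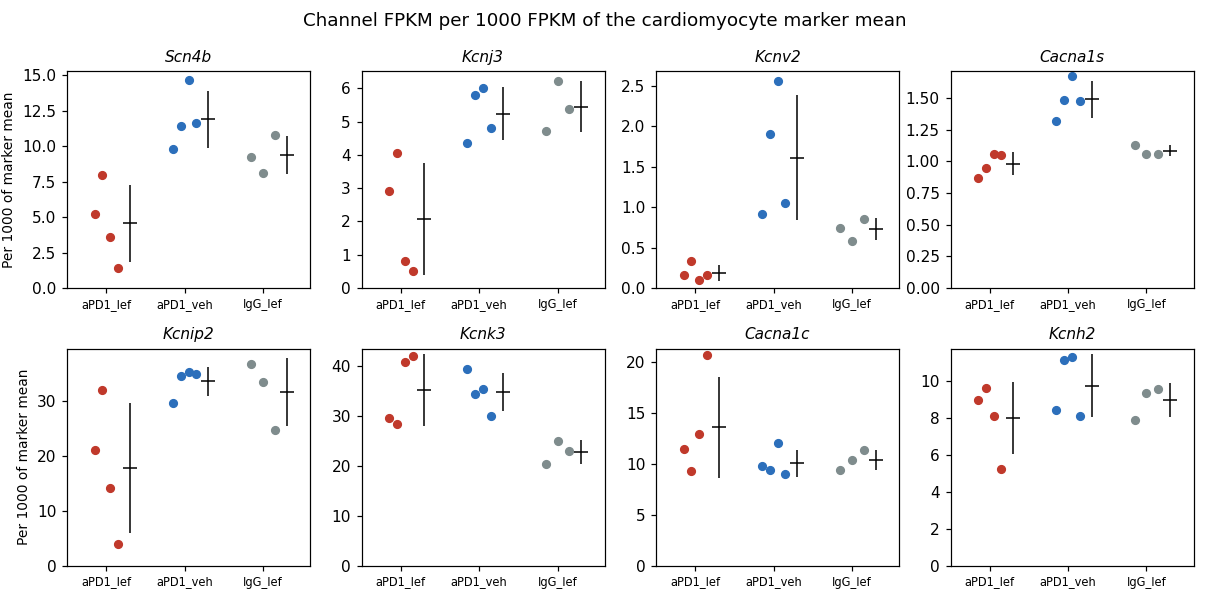
Dots are single libraries of 8 channel genes as FPKM per 1000 FPKM of the geometric mean of 8 cardiomyocyte markers, with the mean and SD in black. Scn4b, Kcnj3, Kcnv2 and Cacna1s remain below in aPD1_lef than in aPD1_veh, while Kcnk3 averages 35.2 in aPD1_lef and 34.8 in aPD1_veh.

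Lists of markers of other cells differed in how many members passed. The lists are short, and 18.2% of all tested genes passed as higher and 14.3% as lower. All 6 fibroblast markers passed as higher in aPD1_lef than in aPD1_veh, with sums of 1064 to 1956 FPKM in aPD1_lef, 372 to 545 FPKM in aPD1_veh and 602 to 914 FPKM in IgG_lef. Of 4 pericyte markers, Cspg4 and Pdgfrb passed as higher (sums 203 to 305, 205 to 256 and 245 to 297 FPKM in the same order of groups). Of 4 smooth muscle markers, Tagln did (83.1 to 163, 43.5 to 90.7 and 63.3 to 70.0 FPKM). None of 5 endothelial markers, 4 tested leukocyte markers or 1 tested marker of neurons and Schwann cells passed, and no marker of these lists was at 0 in every library. The sums of the 7 nerve markers were 3.02 to 4.42 FPKM in aPD1_lef, 2.08 to 3.65 FPKM in aPD1_veh and 3.29 to 4.85 FPKM in IgG_lef, and those of the 6 leukocyte markers 42.4 to 89.7, 26.8 to 46.9 and 34.6 to 95.8 FPKM. Their part in the channel results was not tested.

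Of 42 tested genes whose products bind or regulate channels, 31.0% were called between aPD1_lef and aPD1_veh, near the 32.4% of all genes. Of 8 tested accessory partners 4 fell and none rose, where 14.3% of all tested genes were lower and 18.2% higher. Abcc9, the SUR2 subunit that completes the ATP-sensitive channel with Kcnj11 or Kcnj8, averaged 35.2 ± 7.11 FPKM in aPD1_lef and 55.2 ± 4.76 FPKM in aPD1_veh (adjusted p = 0.00682), and its relative Abcc8 (SUR1) 4.82 ± 1.12 and 6.80 ± 0.51 FPKM (adjusted p = 0.0414). Fgf13, which binds the tail of sodium pores, averaged 9.77 ± 1.97 FPKM in aPD1_lef and 17.6 ± 1.79 FPKM in aPD1_veh (adjusted p = 0.00264). Lrrc52, a gamma subunit of large-conductance potassium channels, was 0.585, 0.676, 0.218 and 0.136 FPKM in aPD1_lef and 2.25, 3.26, 7.09 and 1.49 FPKM in aPD1_veh (adjusted p = 0.00558).

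Of 13 tested anchoring and trafficking genes, 3 rose and 1 fell. For the lists in this paragraph, the share over all tested genes was 18.2% higher and 14.3% lower. Bin1, which brings L-type channels to T-tubules, averaged 9.39 ± 2.01 FPKM in aPD1_lef and 5.62 ± 1.40 FPKM in aPD1_veh, with a log2 change of 0.66 and an adjusted p of 0.0222. Sorbs2, a scaffold protein, averaged 138 ± 21.6 FPKM in aPD1_lef and 74.4 ± 15.6 FPKM in aPD1_veh (0.89, adjusted p = 0.00414). The LIM protein Fhl1 averaged 259 ± 168 FPKM in aPD1_lef and 59.5 ± 6.59 FPKM in aPD1_veh (1.84, adjusted p = 0.00979). Rangrf (MOG1), which helps sodium pores reach the membrane, averaged 41.0 ± 11.3 FPKM in aPD1_lef and 63.4 ± 5.44 FPKM in aPD1_veh, a log2 change of -0.65 (adjusted p = 0.0197). Of 3 tested small GTPases that inhibit L-type channels, Rrad passed, at 120, 113, 153 and 215 FPKM in aPD1_lef and 80.9, 90.1, 88.5 and 129 FPKM in aPD1_veh (0.60 ± 0.20, adjusted p = 0.0426). Without aPD1_lef replicate 4 the Rrad call was lost (adjusted p = 0.0593). Of 18 tested transcription factors known from channel genes, Gata4 rose (log2 change 0.39, adjusted p = 0.0172), and Klf15 (-1.04, adjusted p = 0.00187), Tbx3 (-0.69, 0.0106) and Tbx5 (-0.71, 0.0337) fell. The Tbx5 call was lost without aPD1_lef replicate 4 (adjusted p = 0.0671). Klf15, known in mice to bind the Kcnip2 gene, was 14.3, 15.6, 12.3 and 11.6 FPKM in aPD1_lef and 21.4, 29.1, 38.6 and 27.2 FPKM in aPD1_veh. Irx3, Irx4, Irx5, Nkx2-5, Gata6, the 3 Mef2 genes and the remaining factors did not pass.

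Comparing aPD1_veh with IgG_lef, no channel gene passed under limma (0 of 43, against 1.17% of all 12005 genes, 0.242% higher and 0.925% lower). An unadjusted p under 0.05 was found for 8 of the 43 and for 1368 of the 12005. The 8 were Kcnk3, Cacna1s, Kcnv2, Kcna5 and Kcng2 in the higher direction and Cacna2d1, Cacnb1 and Kcnk2 in the lower. Kcnk3 was 89.3, 80.4, 71.5 and 75.8 FPKM in aPD1_veh and 43.1, 55.9 and 45.3 FPKM in IgG_lef, without overlap (log2 change 0.71 ± 0.23, adjusted p = 0.23). Kcnk2 was 0.804, 0.747, 0.476 and 0.924 FPKM in aPD1_veh and 1.45, 1.34 and 1.76 FPKM in IgG_lef, also without overlap (-0.54 ± 0.14, adjusted p = 0.14). Cacnb1 averaged 2.21 ± 0.44 FPKM in aPD1_veh and 3.59 ± 0.17 FPKM in IgG_lef (n = 4 and 3; adjusted p = 0.17). Group values did not overlap for 11 of the 43, against 19% of all genes. The spread of aPD1_lef enters this fit. Without aPD1_lef replicate 4, 5 of 40 channel genes were called, against 482 of all 11911 genes. They were Kcnk3, Kcnj12 and Cacna1s as higher and Cacna2d1 and Kcnk2 as lower. With the aPD1_veh and IgG_lef libraries alone 2 of 43 were called, Kcnk3 and Kcnj12, against 405 of all 12005 genes. Cacna1c, Kcnip2, Kcnj3 and Kcnd2 had adjusted p of 0.91 to 0.98.

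Comparing aPD1_lef with IgG_lef, which differ by the antibody, 8 of 43 channel genes passed, against 7.16% of all genes (5.15% higher and 2.01% lower). Leaving out the 3 genes that the filter required to be higher, 6 of 40 passed, against 6.94%. Group values did not overlap for 22 of the 43, against 26.7% of all genes, and for 19 of the 40, against 26.5%. Among those higher in aPD1_lef were Cacnb1, Cacnb3, Cacng7, Kcnj14 and Kcnj15, and lower were Kcnd2 and Kcnv2. Kcnv2 was 0.0949 to 0.617 FPKM in aPD1_lef and 1.31 to 1.68 FPKM in IgG_lef (-1.0 ± 0.23, adjusted p = 0.035); the aPD1_lef mean was 0.179 times that of IgG_lef, or 0.104 times without aPD1_lef replicate 2. Kcnd2 averaged 1.67 ± 0.91 FPKM in aPD1_lef and 4.05 ± 0.52 FPKM in IgG_lef (-0.98 ± 0.26, adjusted p = 0.0457). In all 8, the 4 aPD1_lef values lay on one side of the 3 IgG_lef values, which the filter required for Kcnj14 and Kcnj15. Scn4b (-1.74 ± 0.54, adjusted p = 0.0688), Kcnj3 (-1.90 ± 0.52, 0.0532) and Cacna1c (-0.46 ± 0.13, 0.052) did not overlap between the groups and missed the threshold; Kcnip2 overlapped (-1.83 ± 0.75, 0.13).

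Each of these 8 calls was lost in some alternatives, and their number depends on single libraries. Without aPD1_lef replicate 1 or 3 or IgG_lef replicate 1 or 2, 0 channel genes were called. With 1 aPD1_veh library left out the count was 5, 1, 5 and 4 for replicates 1 to 4, and without IgG_lef replicate 3 it was 3. Without aPD1_lef replicate 2 it was 17 of 40, against 2276 of all 11917 genes. Leaving out the 3 libraries with Myl7 above 10 leaves 2 libraries in each leflunomide group. Those of aPD1_lef are replicates 3 and 4, which had the lowest summed cardiomyocyte markers of that group. The count was then 19 of 40, against 2081 of all 11720 genes. Of the 19, 15 were lower, among them Kcnip2 (-3.02), Kcnj3 (-2.81) and Scn4b (-2.77), and 987 of the 2081 were lower. Of the partner genes, Fgf13 (adjusted p = 0.0192) and Abcc9 (0.0459) were lower and Rrad (0.0343) higher in aPD1_lef than in IgG_lef.

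**Figure D5:**
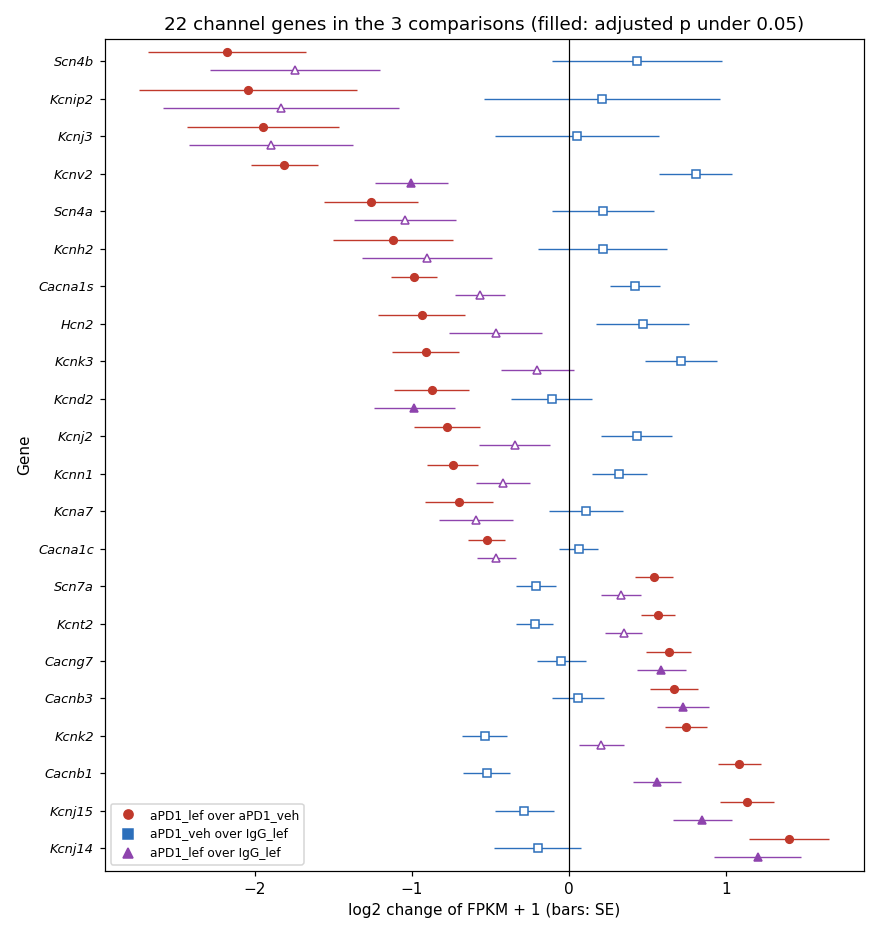
Log2 changes of FPKM + 1 with standard errors for 22 of the 23 channel genes called between aPD1_lef and aPD1_veh, in all 3 comparisons; filled marks passed the adjusted p of 0.05. The comparisons share libraries, so their changes are not independent. No square (aPD1_veh over IgG_lef) is filled, and 7 triangles (aPD1_lef over IgG_lef) are.

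The 3 groups ordered differently from gene to gene. For Kcnk3 the means were 43.3 ± 13.0 FPKM in aPD1_lef, 79.2 ± 7.62 FPKM in aPD1_veh and 48.1 ± 6.82 FPKM in IgG_lef, the 2 leflunomide groups overlapping. For Scn4b they were 7.06 ± 6.00, 27.0 ± 3.44 and 19.7 ± 1.53 FPKM in that order, with no overlap between any of the groups. For Cacnb1 they were 5.85 ± 1.25, 2.21 ± 0.44 and 3.59 ± 0.17 FPKM, again all apart. For Kcnip2 they were 28.2 ± 24.7, 76.8 ± 9.47 and 67.3 ± 16.1 FPKM, IgG_lef overlapping both other groups.

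The genes below the filter include several known from cardiac currents. Kcne1, the minK partner of Kcnq1, was 0.216 to 1.91 FPKM in aPD1_lef, 0.146 to 0.689 FPKM in aPD1_veh and 0.465 to 0.540 FPKM in IgG_lef, so 1 library reached 1. Cacna1h, a T-type pore, was 0.166 to 1.14 FPKM in aPD1_lef, 0.353 to 1.11 FPKM in aPD1_veh and 0.510 to 1.56 FPKM in IgG_lef. Kcna4 (Kv1.4) was at most 0.300 FPKM, Cacna1d (Cav1.3) at most 0.577 and Kcnma1, the large-conductance BK pore, at most 0.774 FPKM. Cacng6 was 0.0327 to 0.296 FPKM in aPD1_lef, 0.631 to 1.43 FPKM in aPD1_veh and 0.266 to 0.893 FPKM in IgG_lef. Kcnh1 and Kcne3 reached 1 in aPD1_lef replicate 4 alone, with 1.25 and 1.27 FPKM. The 10 genes at 0 in every library were Cacng2, Cacng3, Kcnh5, Kcnk9, Kcnk15, Kcnk16, Kcnk18, Kcns2, Kcnv1 and Scn9a. With no filter, 12 of the 84 channel genes added to the fit (14.3%), against 14.7% of all 24367 genes, were called between aPD1_lef and aPD1_veh: Cacng6, Kcnc1, Kcnk1 and Scn10a as lower and Kcna3, Kcna4, Kcnab1, Kcnd1, Kcnj6, Kcnma1, Scn2a and Scn3b as higher, at levels near or below 1 FPKM.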

How the data were processed

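Total RNA from mouse hearts was extracted with TRIzol and libraries were prepared with NEBNext Ultra reagents, per the labels. The deposited table gives values read here as FPKM, which the authors scaled to gene length and depth; the unit is not stated, and a TPM table without some genes cannot be told apart from it. The submitters' processing notes name HISAT2, DESeq2 and mm10 but no role or version. Of 12 value columns, 11 matched a sample label; 1 matched none and was not used, and 1 labelled IgG_lef sample was not analysed here.

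Genes at 1 or more in at least 4 libraries (12005) were fitted as log2(FPKM + 1), which understates changes of low genes, with limma 3.58.1 in R 4.3.3 (one model of 3 groups, eBayes with trend and robust fitting, statmod 1.5.0). P-values were adjusted by Benjamini-Hochberg over all 12005 genes, threshold 0.05. The fit was tested on simulated data. Read depth is unknown, so no counting intervals are given. Tables and figures used Python 3.11.15, pandas 2.3.3, NumPy 2.4.6 and matplotlib 3.10.9. Coordinates and promoters are RefSeq GRCm38.p6, to which all 137 channel symbols matched; 14 tested channel genes overlap a gene on the opposite strand.

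The members, gene lists, alternatives and naming rule were chosen with earlier results of these data known. Named were called channel genes without overlap (up to 12 each way), 31 fixed channel genes and called members of the partner and marker lists; genes named outside this rule were chosen after their values were seen. Some genes that the rule covers are not reported or drawn here; they remain in the fit and the counts. Alternatives were other scalings, pseudocount, filters, spread estimates, a replicate block, fits of the 2 groups alone and leaving out libraries.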

Additional observations from a re-analysis of the deposited data

Results flagged for a closer look

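Among 86 sets of 4 libraries (43 tested channel genes in aPD1_lef and in aPD1_veh), 6 had a library far from the other 3 by Dixon's criterion at 95%, which chance gives in about 1 of 20 sets. Of the 6, 3 lie in aPD1_lef replicate 4. Kcne4 was 60.4 FPKM there, against 4.06 to 5.11 FPKM in the other aPD1_lef libraries. Cacnb2 was 3.81 FPKM there, against 9.69 to 10.7 FPKM. Kcnq1 was 7.18 FPKM there, against 12.7 to 13.6 FPKM. In aPD1_lef replicate 3, Cacna2d1 was 19.8 FPKM, against 21.2 to 21.4 FPKM in the others. In aPD1_veh replicate 1, Kcnd2 was 2.52 FPKM, against 4.03 to 4.17 FPKM. In aPD1_veh replicate 2, Cacnb3 was 2.00 FPKM, against 2.27 to 2.32 FPKM.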

How the results depend on the processing

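Between aPD1_lef and aPD1_veh, 17 of the 23 channel genes called kept their call in every alternative in which they were tested. These 17 include Kcnj14, Kcnj15 and Kcnt2, which the filter required to be higher, so their kept calls do not speak for stability. They dropped out wherever an aPD1_lef library was left out. Kcnh2, Kcnip2, Kcna7, Hcn2, Kcnd2 and Kcnj2 lost their call in some alternatives, and no called gene reversed. The count of channel genes was 16 to 26 with 1 library left out, and that of all genes 2379 to 4264. For aPD1_veh against IgG_lef, 140 genes were called, against 92 with no filter, 405 with only the groups compared, 0 with the replicate block and 3 to 482 with 1 library left out; channel genes called were 0, against 2 with only the groups compared and 0 to 5 with 1 library left out. For aPD1_lef against IgG_lef, 859 genes were called, against 277 with no filter, 0 with only the groups compared, 0 with the replicate block, 2081 without the 3 libraries with atrial transcripts and 2 to 2276 with 1 library left out. Channel genes called there were 8, against 13 with quantile normalization, 4 with a pseudocount of 0.1, 0 with no filter, 0 with only the groups compared, 0 with the replicate block, 19 without the atrial libraries and 0 to 17 with 1 library left out. The causes were not tested, except that leaving out libraries leaves fewer to test. Deviations from the group mean correlated at -0.29 to 0.19 between libraries that share a number, and at -0.42 to 0.39 between those that do not. With only 3 or 4 libraries in a group, this cannot tell whether the numbers pair them. With the number as a block, 3602 genes and 26 channel genes were called between aPD1_lef and aPD1_veh. Among channel genes not called, the sign of the change between aPD1_lef and aPD1_veh turned for Kcng2 and Kcnip3 with one total per library. Low values (Kcnj15, Kcnv2, Kcnt2) are limited by a depth that is unknown.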
